A study of Mus musculus with 2 samples.

Results

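Zinc finger genes named Zfp lie in dense tandem runs on several mouse chromosomes, and the positions of these runs were set against the domain boundaries mapped in olfactory sensory neurons. A member was an autosomal gene whose symbol is Zfp followed by a number alone, in a run of at least 5 such genes with neighbouring transcription start sites (TSSs) under 500 kb apart (GENCODE M21 annotation, GRCm38). The rule gave 176 members of 367 autosomal Zfp genes (48.0%), in 17 clusters on 7 chromosomes. Chromosome 7 held 9 of the clusters and 78 of the genes. No measured value entered the choice of the genes.

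The study used in situ Hi-C, in which crosslinked chromatin is cut (here with DpnII, after 1% formaldehyde) and joined to its spatial neighbours, so that ligated fragments report contacts. The cells were mature olfactory sensory neurons positive for the odorant receptor gene Olfr17 (P2), sorted by fluorescence from the olfactory epithelium of adult P2-GFP mice of the 129P2/OlaHsd strain, of mixed sex. The labels' modification field lists none, although the sorting protocol names the GFP allele. The 2 biological replicates, of 23000 and 20000 cells, form 1 group, and the authors called boundaries on their combined contact matrix, so no spread between animals could be measured and there is no comparison with another cell type. The sort and the cell type could not be checked against marker genes, since no expression was measured.

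Most clustered Zfp genes of mammals encode KRAB zinc finger proteins. In these, an array of C2H2 zinc fingers binds DNA, often within retroelements, and the KRAB domain recruits the corepressor Trim28 (KAP1), which brings in the H3K9 methyltransferase Setdb1. The clusters grew by tandem duplication, so neighbouring genes and the sequence between them are often alike. At a domain boundary few Hi-C contacts cross from one side to the other, and in mammals many boundaries hold bound CTCF or lie at the starts of active genes.

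The list held 7576 boundaries, each a bin of 5 kb with a class and a score, and 7169 were autosomal. The score, in column 5 of the deposited list, ran between 0.2 and 4.38. Its unit is not given, and it is compared only within the list. All Weak boundaries scored at most 0.4996 and all Strong ones at least 0.5002. The contact depth of the map is unknown. The 95% intervals below are exact (Poisson for densities, Clopper-Pearson for shares, order statistics for medians). They cover counting error only and take positions and genes as independent, which neighbouring genes are not. With 1 pooled list there was no test between conditions, and differences from other genes are given as values with their intervals.

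The clusters ran from the 6 genes of Zfp628 to Zfp580 in 139 kb to the 23 genes of Zfp160 to Zfp13 in 2591 kb. The members included 173 protein-coding genes and 3 pseudogenes (Zfp783, Zfp264 and Zfp640). The widest TSS gap kept within a cluster was 485 kb, in the cluster of Zfp180 to Zfp526, and the narrowest gap that ended one was 594 kb, between Zfp28 and Zfp264. There were 3 clusters of exactly 5 genes. The 5 runs of 4 genes that just missed the rule (Zfp120 to Zfp345, Zfp968 to Zfp966 and Zfp970 to Zfp931 on chromosome 2, Zfp709 to Zfp961 on chromosome 8 and Zfp433 to Zfp938 on chromosome 10) spanned 112 to 614 kb and had 0 boundaries inside in 1.99 sequenced Mb together. This count allows up to 1.85 per Mb (upper end of the 95% Poisson interval).

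**Figure D1:**
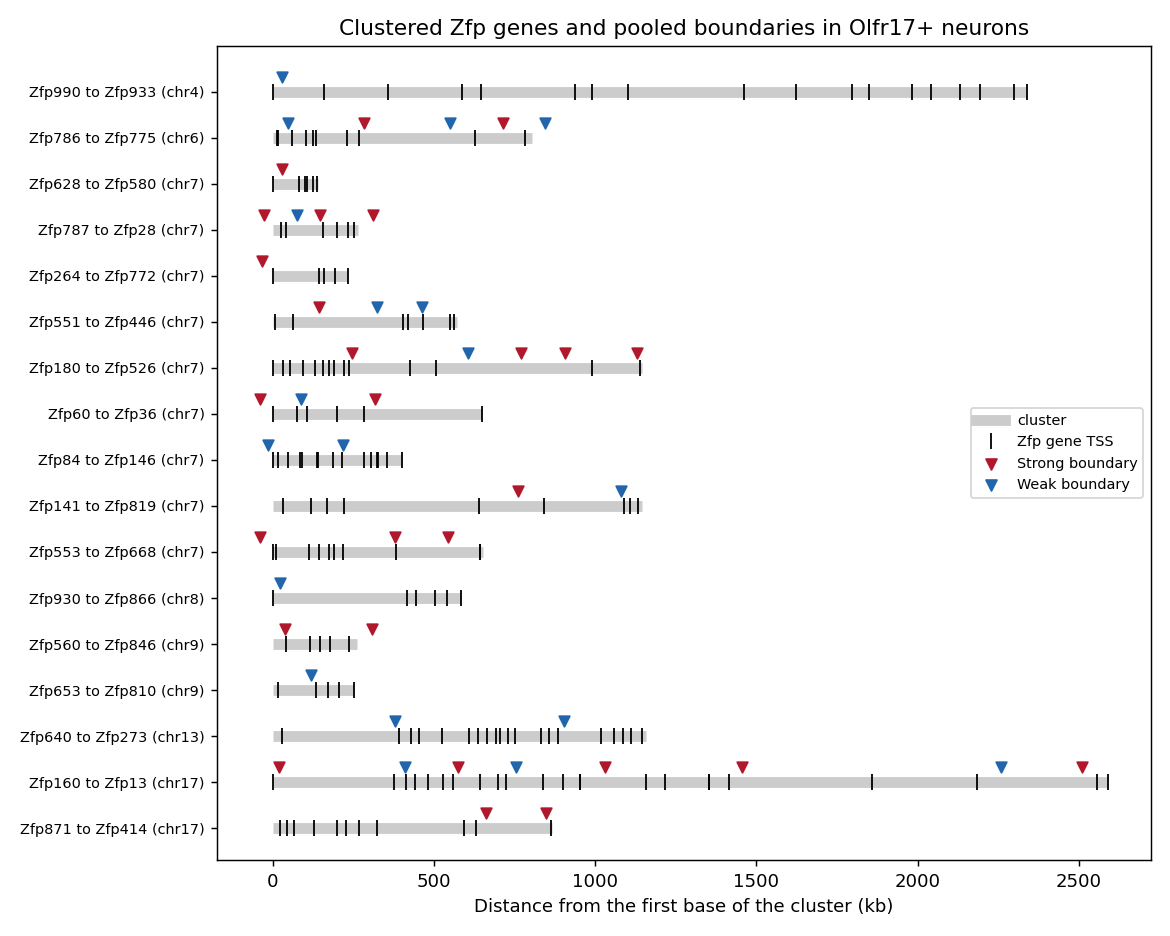
Each row is a Zfp cluster (grey bar), with distance from its first base in kb on the x axis, member TSSs as black ticks, and boundaries inside the cluster or within 50 kb of an edge as red (Strong) or blue (Weak) triangles. The first row, Zfp990 to Zfp933, has 1 boundary, at its left end, while Zfp160 to Zfp13 has 8 spread along its length.

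Boundaries were called inside 16 of the 17 clusters. In all, 38 boundaries lay inside, or 2.79 per sequenced Mb (95% interval 1.98 to 3.83), against 2.99 per Mb on the autosomes, a value within that interval. The upper limit for the 5 shorter runs, 1.85 per Mb, lies below both. How well reads can be placed in those runs is not given, and their spans include unsequenced bases. What part these play in the absence of boundaries was not tested. The cluster of Zfp264 to Zfp772 held 0 boundaries in 0.233 Mb, which allows up to 15.8 per Mb, 6 clusters held 1 and 10 held 2 or more. The highest density was 7.54 per Mb at Zfp787 to Zfp28 (2 boundaries, 0.913 to 27.2). The lowest among the clusters of over 1 Mb was 0.525 per Mb at Zfp990 to Zfp933 (1 boundary, 0.0133 to 2.92).

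Of the 38 boundaries inside clusters, 21 were Strong (55.3%, 38.3 to 71.4), against 54.6% of all autosomal boundaries. Their median score was 0.510 (0.355 to 0.599), against 0.564 (0.546 to 0.577) for the 7123 autosomal boundaries that lay neither inside a cluster nor within 50 kb of an edge. The intervals overlap. The upper quartile was 0.673 inside clusters and 0.996 among the other boundaries, while the lower quartiles were 0.315 and 0.317. Scores of 1 or more were held by 5 of the 38 boundaries inside clusters, while the upper quartile of the other boundaries, 0.996, lay just below 1.

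**Figure D2:**
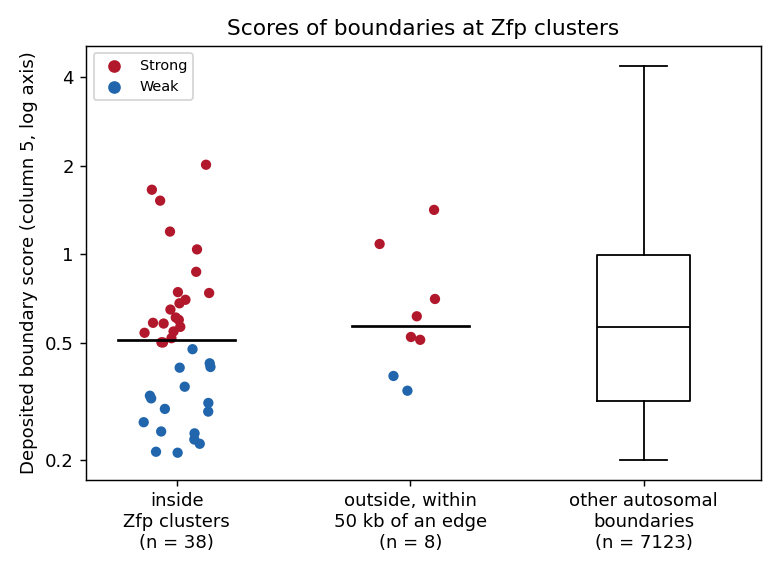
Deposited boundary scores on a log axis, as points with a median line for the 38 boundaries inside Zfp clusters and the 8 outside within 50 kb of an edge, and as a box (quartiles, with whiskers to the lowest and highest score) for the 7123 other autosomal boundaries. The medians are 0.510, 0.570 and 0.564, and the upper quartile of the other boundaries, 0.996, lies above that inside clusters, 0.673.

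The highest score inside a cluster was 2.02, at chr17:23515001-23520000 in the cluster of Zfp160 to Zfp13. This boundary lay 37.8 kb from the TSS of the vomeronasal receptor gene Vmn2r117 and 46.7 kb from that of Zfp213, and it separated the last 2 members, Zfp213 and Zfp13, from the vomeronasal genes within the cluster. The next score, 1.66, lay at chr6:48100001-48105000, 15.9 kb from Zfp746, which encodes the parkin substrate PARIS, a repressor of PGC-1α. A score of 1.52 was given at chr7:43230001-43235000, in the cluster of Zfp141 to Zfp819, with Zfp715 the nearest gene at 80.8 kb. At chr7:28045001-28050000 a boundary of 1.20 lay in Psmc4, a subunit gene of the proteasome, between Zfp850 and Zfp36. The fifth, of 1.04, lay at chr7:24850001-24855000, 9.71 kb from the TSS of Gm9844, with the nearest member, Zfp574, 220 kb away. None of these 5 lay within 10 kb of a member's TSS, and only 9 of all 38 inside clusters did.

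The lowest scores inside clusters were 0.212 in the body of Zfp990, at chr4:145535001-145540000, and 0.213 in the body of Zfp568, at chr7:29985001-29990000. Zfp568 encodes a KRAB repressor that silences a placental transcript of Igf2 in the mouse embryo. In all, 18 of the 38 boundaries lay in the body of a protein-coding gene (47.4%, 31.0 to 64.2), against 40.4% of autosomal boundaries, and 11 of the 18 lay in a member. A protein-coding TSS lay within 10 kb of 16 of the 38 (42.1%, 26.3 to 59.2), against 26.6% of autosomal boundaries, and a member's TSS within 10 kb of 9. For 21 of the 38 the nearest protein-coding TSS was that of a member. Members made up between 28.6% (Zfp60 to Zfp36) and 100% (Zfp560 to Zfp846) of the protein-coding TSSs within a cluster. Since members define the clusters, these counts do not show a preference for members.

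A boundary lay within 50 kb of 16 of the 34 cluster edges (47.1%, 29.8 to 64.9), where an edge is the first or last base of a cluster. The background was 31.3% of autosomal 5 kb bins and 43.7% of autosomal protein-coding TSSs. Both background shares lie within the interval. Of these 16 boundaries 8 lay outside the cluster and 8 inside, and 11 were Strong. Both edges had one at 3 clusters (Zfp786 to Zfp775, Zfp787 to Zfp28 and Zfp560 to Zfp846), 1 edge at 10 clusters and neither at 4 (Zfp551 to Zfp446, Zfp141 to Zfp819, Zfp653 to Zfp810 and Zfp640 to Zfp273). The distance of an edge to the nearest boundary ran between 15 kb at Zfp526 and 378 kb at Zfp640, with a median of 60 kb.

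Within 25 kb the share of edges was 5 of 34 (14.7%, 4.95 to 31.1), against 16.5% of bins and 24.3% of autosomal protein-coding TSSs. Both lie within that interval. Within 100 kb 27 of the 34 (79.4%, 62.1 to 91.3) had a boundary, against 56.3% of autosomal bins and 73.1% of autosomal protein-coding TSSs. The share of bins lies below that interval and the share of TSSs inside it. The density was 5.94 per Mb (2.85 to 10.9, 10 boundaries) in windows 50 to 100 kb outside the edges. In the nearest 50 kb it was 4.71 per Mb (2.03 to 9.27) on either side, with 8 boundaries each. At 50 to 100 kb inside it was 3.05 per Mb (0.991 to 7.12), from 5 boundaries, and all 4 intervals overlap. At 7 of the 34 edges a boundary lay between the TSS of the outermost member and that of the next protein-coding gene beyond the cluster (20.6%, 8.70 to 37.9), near the 23.3% of neighbouring protein-coding pairs that have one between them. At the other 27 the outermost member shared its interval between boundaries with the next gene, such as Zfp36 with Med29, a Mediator subunit gene, and Zfp668 with the protease gene Prss53. Edges follow symbols alone, so the next gene can itself be a zinc finger gene. Beyond Zfp60, at one of the 7 edges, it was Zfp607b, whose letter suffix the rule leaves out, and the boundary lay in Zfp607b. Beyond Zfp13 it was Zscan10, with no boundary between.

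Of the 8 edge boundaries outside clusters the highest score was 1.42, at chr7:127190001-127195000 in Cd2bp2, 40.6 kb before Zfp553. A boundary of 1.08 lay 29.0 kb before the cluster of Zfp787 to Zfp28, in Nlrp4c. A boundary of 0.705 in Usp29 lay 34.7 kb before Zfp264, and the nearest protein-coding TSS was that of Aurkc, at 52.8 kb. Usp29 and Zfp264 are both known from the imprinted Peg3 domain of the mouse.

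The starts of clustered Zfp genes lay farther from boundaries than those of other genes. A boundary midpoint lay within 25 kb of 21 of the 176 member TSSs (11.9%, 7.54 to 17.7), of 37 of the 191 other autosomal Zfp TSSs (19.4%, 14.0 to 25.7) and of 24.3% of autosomal protein-coding TSSs (23.7 to 24.8). The interval of the members lies below that of all protein-coding genes and overlaps that of the other Zfp genes. Of autosomal 5 kb bins, 16.5% lay within 25 kb, which is inside the members' interval. Within 50 kb the shares were 24.4% (43 members), 38.7% and 43.7%. The median distance was 85.6 kb (75.7 to 101) for members, 63.3 kb (56.7 to 73.3) for the other Zfp genes and 58.4 kb (57.5 to 59.4) for all protein-coding genes. No member TSS lay in a boundary bin. Boundaries are 7169 of the 479191 autosomal 5 kb bins, and the share for other genes was not computed. This count alone therefore shows no avoidance.

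**Figure D3:**
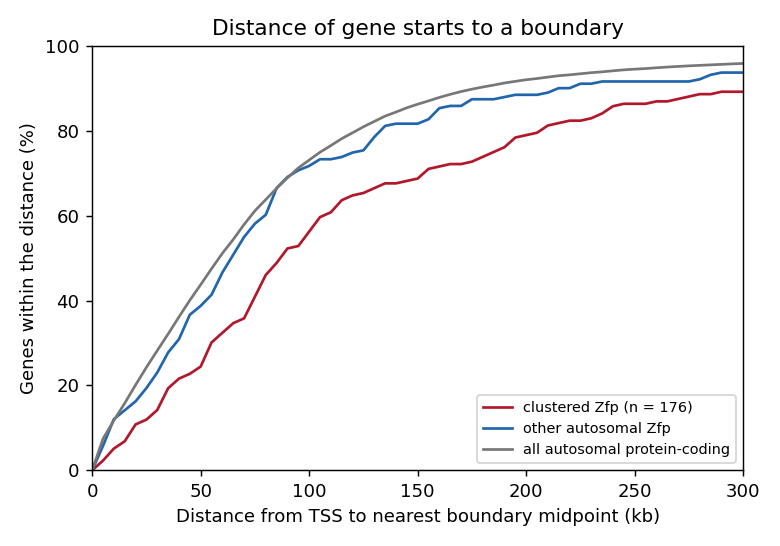
Cumulative percentage of genes (y axis) whose TSS lies within a given distance in kb (x axis) of the nearest boundary midpoint, for clustered Zfp genes (red), other autosomal Zfp genes (blue) and all autosomal protein-coding genes (grey). The red line runs below both others, with 24.4% of clustered Zfp genes within 50 kb against 43.7% of protein-coding genes.

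Within 10 kb of a boundary lay 9 member TSSs (5.11%, 2.36 to 9.49), 23 of the other Zfp TSSs (12.04%) and 11.7% of protein-coding TSSs. The closest was Zfp560, 2.68 kb from a Strong boundary of 0.739 in its own body. Zfp629 lay 3.30 kb from a boundary of 0.502, and Zfp568 lay 3.55 kb from its Weak boundary of 0.213. These 3 genes had the boundary downstream of the TSS, within the gene. The other 6 had it upstream: Zfp128 at 3.68 kb, Zfp54 at 5.73 kb, Zfp526 at 8.93 kb, Zfp667 at 9.08 kb, Zfp282 at 9.70 kb and Zfp658 at 9.76 kb. The scores at these 6 were 0.246, 0.426, 0.547, 0.649, 0.312 and 0.235. Over all members the nearest boundary was upstream for 93 and downstream for 83.

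The 5 members farthest from a boundary were Zfp989 at 1111 kb, Zfp993 at 1073 kb, Zfp981 at 965 kb, Zfp991 at 950 kb and Zfp992 at 912 kb. All 5 lay in 1 interval of 2545 kb on chromosome 4, between the Weak boundary of 0.212 in Zfp990 and a Strong boundary of 1.02 at chr4:148080001-148085000. It was the interval with most members, 17 of the 18 in its cluster (Zfp980, Zfp986, Zfp987, Zfp600, Zfp992, Zfp981, Zfp993, Zfp989, Zfp991, Zfp988, Zfp978, Zfp982, Zfp985, Zfp979, Zfp534, Zfp984 and Zfp933), among 30 protein-coding genes in it, and it ranked 11 by length among 7150 autosomal intervals. The KRAB genes of this cluster are known for repressing endogenous retroviruses in mouse embryonic cells. In this cluster only 38.2% of simulated reads of 100 bases were placed uniquely, and 432 kb of it are unsequenced in the reference, so a lack of called boundaries and a lack of usable reads cannot be told apart there.

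Several members have a role known from other tissues. Zfp809, which silences retroviruses through their primer binding site in mouse embryonic cells, lay 53.2 kb from a Weak boundary of 0.476, in an interval of 230.0 kb with 4 members. Zfp708, which represses a family of retrotransposons in the mouse germ line and embryo, lay 50.5 kb from a Weak boundary of 0.412, in an interval of 525 kb that held 14 members, Zfp712 to Zfp748. Zfp110, which encodes an interactor of the p75 neurotrophin receptor, lay 42.7 kb from the Weak boundary of 0.246 that stands before Zfp128. Zfp59 was nearer, at 21.1 kb, and Zfp30, Zfp60, Zfp14, Zfp78 and Zfp27 lay 31.5, 38.9, 63.9, 79.2 and 80.9 kb away.

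The members fell into 47 intervals between flanking boundaries, with a median length of 235 kb, against 260.0 kb for all 7150 autosomal intervals. Counted per gene the order is reversed: the interval around a gene had a median of 420.0 kb for members and 270.0 kb for both the other Zfp genes and all protein-coding genes. Of these 47, 15 held 1 member, 16 held 2 to 4 and 16 held 5 or more. The last 16 held 119 of the 176 members (67.6%). The rule picks runs of at least 5 close genes, so many members per interval is in part set by the rule. No such share was computed for other genes. The longest was 3520 kb on chromosome 7, rank 3 on the autosomes, which held the 5 genes Zfp264 to Zfp772 at its left end and ran on through a region of vomeronasal receptor genes beyond Vmn2r29. Read placement and unsequenced bases over this whole interval are not given. In clusters of vomeronasal receptor genes 64.3% of simulated reads were placed uniquely, and the part of read placement in the interval's length was not tested. The cluster of Zfp180 to Zfp526 had 10 members in 1 interval of 440.0 kb (Zfp180 to Zfp94), and that of Zfp871 to Zfp414 had 10 in 740.0 kb (Zfp871 to Zfp101). The cluster of Zfp84 to Zfp146 was divided by its single boundary, in Zfp568, into 9 and 6 genes in intervals of 235 and 245 kb.

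Between neighbouring members, a boundary lay between the TSSs of 30 of 159 pairs (18.9%, 13.1 to 25.8), against 23.3% of pairs of neighbouring autosomal protein-coding genes. The shares differed for close pairs. Of the 121 member pairs under 100 kb apart, 7 had a boundary between them (5.79%, 2.36 to 11.6), against 13.7% of protein-coding pairs (13.1 to 14.2). Of the 38 pairs 100 to 500 kb apart, 23 did (60.5%, 43.4 to 76.0), against 60.9%. The 7 close pairs were Zfp398 and Zfp282, Zfp628 and Zfp579, Zfp110 and Zfp128, Zfp626 and Zfp59, Zfp568 and Zfp14, Zfp677 and Zfp54, and Zfp948 and Zfp983, named here after their values were seen. Member pairs may have other genes between them, unlike protein-coding pairs, so the 2 kinds of pair are not matched in gene content.

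**Figure D4:**
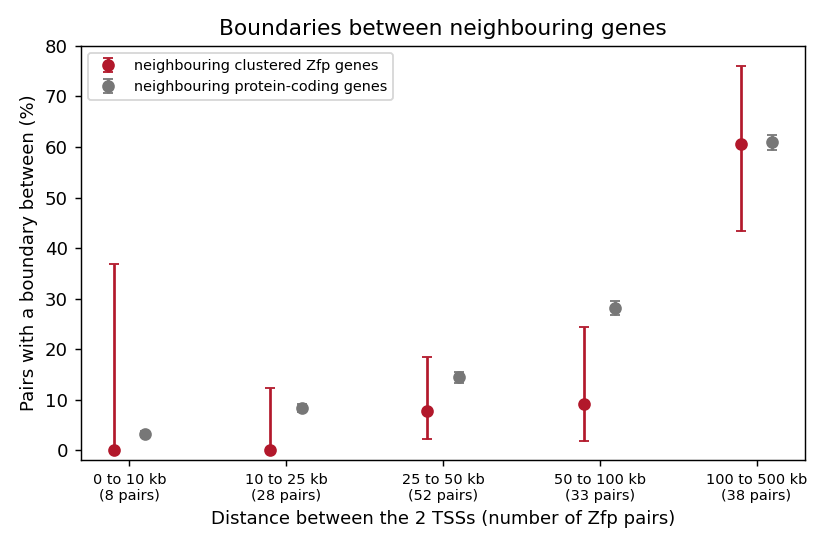
Percentage of neighbouring gene pairs with a boundary between their TSSs (y axis), by the distance between the TSSs (x axis), for clustered Zfp genes (red) and all autosomal protein-coding genes (grey), with 95% Clopper-Pearson intervals. From 50 to 100 kb the share is 9.09% of 33 Zfp pairs and 28.2% of protein-coding pairs, and from 100 to 500 kb it is 60.5% and 60.9%.

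No boundary was called between member pairs less than 25 kb apart (0 of 8 under 10 kb, which allows up to 36.9%, and 0 of 28 from 10 to 25 kb, up to 12.3%), while protein-coding pairs had one in 3.25% and 8.31%. From 25 to 50 kb the shares were 7.69% (4 of 52) and 14.4%. Of the member pairs, 101 were on the same strand (14.9% with a boundary), 29 were divergent (24.1%) and 29 convergent (27.6%), and these shares have overlapping intervals.

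Boundary density was set beside how well reads can be placed in a cluster. Of simulated 100-base reads, 78.1% were placed uniquely inside the clusters, against 91.2% on the autosomes. The 14 clusters with at least 80% unique reads held 28 boundaries, or 3.28 per Mb (2.18 to 4.74). The 3 below 80% (Zfp990 to Zfp933, Zfp930 to Zfp866 and Zfp160 to Zfp13) held 10, or 1.97 per Mb (0.945 to 3.62), and the intervals overlap. Across the 17 clusters, which differ in length and gene content, the Spearman correlation of density with read uniqueness was 0.70, given as a description. Density had a correlation of 0.45 with protein-coding gene density and 0.32 with core matches of the CTCF motif per Mb, and uniqueness one of 0.72 with these matches, so the measures moved together. In the 14 better placed clusters 13.2% of 129 member TSSs (7.87 to 20.3) lay within 25 kb of a boundary, and 5 of 95 member pairs under 100 kb apart (5.26%, 1.73 to 11.9) had one between them. Over all autosomal protein-coding genes, with no selection on read placement, these shares were 24.3% and 13.7%. What part read placement plays in the density and in these shares was not tested.

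**Figure D5:**
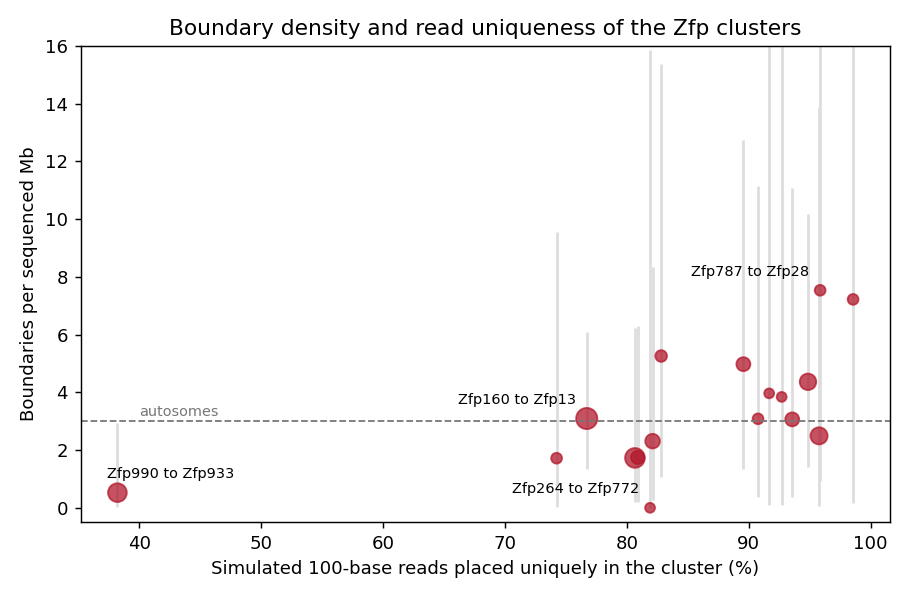
Boundaries per sequenced Mb (y axis) against the percentage of simulated 100-base reads placed uniquely (x axis) for the 17 Zfp clusters, with point area by number of genes, grey exact Poisson 95% intervals cut off at the top of the axis, and the autosomal density as a dashed line. Zfp990 to Zfp933 stands apart at 38.2% unique reads and 0.525 boundaries per Mb.

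The predicted proteins were searched for zinc finger and KRAB patterns. Of 173 members with a translation, 172 had at least 1 match to the C2H2 zinc finger pattern, with a median of 12 and at most 27 (Zfp646), against a median of 9 in 185 other Zfp proteins. The exception was Zfp36, which encodes tristetraprolin, an RNA-binding protein with fingers of the CCCH type, so it is a member by symbol alone. A KRAB pattern was found in 119 of 173 members (68.8%, 61.3 to 75.6) and in 40 of 185 other Zfp proteins (21.6%, 15.9 to 28.3). The clusters of Zfp628 to Zfp580 and of Zfp180 to Zfp526 had it in 0 of 6 and 0 of 14 genes, while Zfp990 to Zfp933 had it in 17 of 18. A KRAB domain that departs from the pattern is missed, so genes without a match cannot be taken to lack the domain. Zfp708, named above as a repressor, had no match. Members with the KRAB pattern lay within 25 kb of a boundary in 12.6% of cases (7.23 to 19.9) and those without it in 11.1% (4.19 to 22.6), at median distances of 101 and 78.1 kb. This split is by pattern match and not by the domain itself.

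Matches to the core consensus of CTCF, searched on both strands, lay within 10 kb of 25 of the 38 boundaries inside clusters (65.8%, 48.6 to 80.4), against 59.0% of all autosomal boundaries and 41.9% of autosomal bins. The clusters were rich in this match, at 60.5 per Mb (56.5 to 64.8) against 35.4 per Mb on the autosomes. A single word, CCAGAAGAGGGC, made up 67.6% of the matches in clusters and 56.9% on the autosomes, and over 99% of its copies in both were in repeats as soft-masked in the reference. Outside soft-masked repeats the density was 11.97 per Mb (10.2 to 14.0) in clusters and 10.5 per Mb on the autosomes, and such a match lay within 10 kb of 12 of the 38 boundaries (31.6%, 17.5 to 48.7), against 31.5% of autosomal boundaries and 18.0% of bins. A match is a sequence description and not measured binding.

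Boundary bins inside clusters or within 50 kb of an edge held 13 core matches, 9 of them this word. They lay in 9 of 46 bins (19.6%, 9.36 to 33.9), against 14.9% of autosomal bins, and came to 56.5 per Mb (30.1 to 96.7), an interval that includes the 60.5 per Mb of the clusters. The following windows of 60 bases from the GRCm38 reference (C57BL/6J), written 5′ to 3′ on the strand of the match with the core in capitals, are shown because the first 4 share most of their flanks as well, while the last pair, which also match the stricter consensus, lie outside repeats.
Boundary of 1.52 near Zfp715, chr7:43230666-43230725, minus strand: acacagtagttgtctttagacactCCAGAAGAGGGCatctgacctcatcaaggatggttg
Boundary of 0.616 before Zfp60, chr7:27693730-27693789, plus strand: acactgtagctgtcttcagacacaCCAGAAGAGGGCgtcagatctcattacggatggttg
Boundary of 0.227 at Galp, chr7:6206432-6206491, plus strand: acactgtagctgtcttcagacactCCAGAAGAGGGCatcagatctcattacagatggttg
Boundary of 0.213 in Zfp568, chr7:29988618-29988677, plus strand: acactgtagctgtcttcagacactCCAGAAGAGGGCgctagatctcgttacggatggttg
Boundary of 0.705 in Usp29, chr7:6940911-6940970, plus strand: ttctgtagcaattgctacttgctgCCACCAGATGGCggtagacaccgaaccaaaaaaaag
Boundary of 0.519 near Zfp628, chr7:4943325-4943384, plus strand: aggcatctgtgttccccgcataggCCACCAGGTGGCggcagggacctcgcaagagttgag

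The windows at Zfp60, Galp and Zfp568 were identical to the first window at 85.0%, 86.7% and 81.7% of positions, while those in Usp29 and near Zfp628 were at 28.3% and 40%. B2 elements, a family of short retrotransposons of rodents, are known to carry a CTCF motif. No repeat annotation beyond soft-masking was used, so the windows were not assigned to a family. The boundary near Zfp628 lay at chr7:4940001-4945000 in Ssc5d and Sbk2 and had 7 core matches within 10 kb. The boundary of highest score, 2.02 near Zfp213, had 0.

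Set beside Zfp clusters, the clusters of the chemosensory receptor genes, built by the same rule, had a lower share of Strong boundaries inside. It was 55.3% (38.3 to 71.4) in Zfp clusters, 36.5% (25.6 to 48.5) in 33 clusters of 1344 odorant receptor (Olfr) genes and 32.4% (18.0 to 49.8) in 16 clusters of 303 vomeronasal receptor (Vmn) genes, with overlapping intervals. On the autosomes the share was 54.6%, which lies within the Zfp interval and above those of Olfr and Vmn. The Zfp share was thus near the autosomal one, and the receptor families departed from it. The median scores were 0.510, 0.385 and 0.356, against 0.564 on the autosomes. The densities were 2.79, 2.48 and 1.68 per Mb, against 2.99 per Mb on the autosomes. Boundaries within 50 kb of an edge ran the other way for Olfr, at 47.1% of 34 Zfp edges, 65.2% of 66 Olfr edges (52.4 to 76.5) and 53.1% of 32 Vmn edges. Uniquely placed reads were 78.1%, 86.4% and 64.3% in the 3 families, and their part in these values was not tested. The families touch, since the cluster of Zfp160 to Zfp13 holds 11 Vmn genes and 1 Olfr gene and that of Zfp871 to Zfp414 holds 4 Olfr genes. The clusters of Zfp551 to Zfp446 and Zfp141 to Zfp819 hold 4 and 2 Vmn genes.

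Of the genes for corepressors and chromatin proteins that act with KRAB zinc finger proteins or at their targets, all 16 listed were found. The list includes Zfp57, itself a zinc finger gene outside the clusters, so the values over all 16 are not of corepressors alone. Trim28 itself lay 13.4 kb outside the cluster of Zfp551 to Zfp446, in the same interval between boundaries as Zfp128, Zfp324 and Zfp446, 63.4 kb from the Strong boundary of 1.11 that ends that interval at chr7:13060001-13065000. None of the other 15 shared an interval with a clustered Zfp gene. Setdb1 lay 69.7 kb from a Strong boundary of 1.19, and Chd4, an ATPase of the NuRD complex, was the closest of the 16, at 3.48 kb from a Strong boundary of 1.02. A boundary lay within 25 kb of 1 of the 16 TSSs (6.25%, 0.158 to 30.2), against 24.3% of autosomal protein-coding TSSs, and within 50 kb of 4 (25.0%, 7.27 to 52.4), against 43.7%. Both background shares lie within the intervals. The median distance was 71.0 kb, against 58.4 kb for protein-coding genes.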

How the data were processed

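The authors deposited 5 kb boundary bins with a class and a score, called on the merged contacts of the 2 replicates, per the labels' design text. The build is GRCm38, per the submitters' processing notes. The score in column 5 of the deposited list has no stated unit. Caller, aligner, filters and depth: not given in the sources used here. Other processed outputs (contacts, insulation, compartments) were not used here.

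A boundary's position was its bin midpoint, a gene's its annotated 5′ end in GENCODE M21, and coordinates are 1-based. The last boundary on each chromosome lay within its GRCm38 length. Sequenced length excludes N. A cluster ran between the outermost bases of its members. The mice were 129P2/OlaHsd and the reference is C57BL/6J, so copy number differences in these clusters are not seen. Reads of 100 bases taken every 1000 bases were aligned back to the reference with minimap2 2.31, and those with mapping quality 30 or higher were called unique. This measures the reference and not the authors' reads. The C2H2 and KRAB patterns were searched in translated GENCODE coding sequences with Biopython 1.88, in place of the planned RefSeq protein table, and a KRAB domain that departs from the pattern is missed. Cluster and edge finding were tested on simulated data.

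Members, lists and comparisons were chosen with earlier results of these data known, and no p-value was computed. The text names the first and last gene of each cluster, members within 10 kb of a boundary, the 5 farthest and the members of the fullest interval. It also names listed members of known role, Trim28 and, for many of the boundaries, the nearest protein-coding gene or one that holds the boundary. Genes of the short runs, next genes beyond an edge, interval ends and corepressors other than Trim28 were named after their values were seen. Alternatives were other cluster rules, distances, boundary classes, cluster ends and motif settings.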

Additional observations from a re-analysis of the deposited data

How the results depend on the processing

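The 7 main values were recomputed under 17 alternatives (70 values), of which 2, clusters with at least 80% unique reads and core matches outside repeats, were chosen after seeing the data. Of the 70, 59 stayed within the 95% interval of the value reported (for the number of intervals, within 1.5 times). Over these, density ran between 2.52 and 3.28 per Mb, edges with a boundary between 32.4% and 50%, TSSs within 25 kb between 10.7% and 13.2%, the median score between 0.419 and 0.541 and the Strong share between 40% and 60%. Among the 59, leaving out boundaries within 100 kb of an assembly gap returned all 7 values unchanged, since it removed no boundary counted here. Protein-coding genes alone kept the same boundaries inside clusters, so the score, Strong and CTCF values were equal. Such values say nothing about robustness. The other 11 follow. With Strong boundaries alone the density was 1.54 per Mb and the TSS share 5.11%. Edges with a boundary came to 14.7% within 25 kb and 79.4% within 100 kb, against 16.5% and 56.3% of bins. For protein-coding TSSs these shares were 24.3% and 73.1%. TSSs came to 5.11% within 10 kb and 24.4% within 50 kb. With runs of at least 10 genes, 28 intervals held members in place of 47. The share of boundaries near a CTCF core match was 85.0% (17 of 20) with TSS gaps under 250 kb (the cause was not tested), 18.4% with the stricter consensus, 42.1% within 5 kb and 31.6% outside repeats. No paired analysis was possible because the authors made 1 list from both replicates of 1 group, and for the same reason no replicate could be left out. A letter after the number gave 18 clusters and 17 of 36 edges with a boundary (47.2%). The unknown contact depth limits all counts.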
